A study of Homo sapiens with 12 samples.

Results

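The 25 genes described here are transcribed from the mitochondrial genome. They were chosen as every row of the table whose gene name starts with MT-, and these were also the 25 rows placed on chromosome M, out of 32010 genes. The 25 rows comprised 13 protein-coding genes, 2 ribosomal RNA genes and 10 transfer RNA genes. The low-count filter kept 17 of them, namely the 13 mRNAs, both rRNAs and 2 tRNAs (MT-TA and MT-TN).

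The cells were HEK293 Flp-In, an embryonic kidney line carrying a genomic site that accepts a single transgene, here under doxycycline control. Poly(A) RNA of 4 groups of 3 libraries was sequenced. Cells in siNT were given control siRNA without a target, and cells in siTAF5 an siRNA against TAF5, a subunit of the TFIID complex that helps RNA polymerase II start transcription. The FL cells received the TAF5 siRNA and expressed siRNA-resistant full-length TAF5 (TAF5-FL), and the ΔE8 cells did the same with TAF5 lacking exon 8 (TAF5-ΔE8). Doxycycline, which switches the transgene on, was given from 24 h after transfection for 48 h. All 12 libraries carry the same siRNA and doxycycline tag, and amounts of doxycycline are given for FL and ΔE8 alone. A single TAF5 siRNA was used, and the line that carried the siNT and siTAF5 treatments is not stated. Transgene, doxycycline amount and line therefore cannot be told apart where FL or ΔE8 is compared with the other groups.

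Mitochondrial DNA is transcribed by its own polymerase, POLRMT, with the factors TFAM and TFB2M, and not by RNA polymerase II. Each strand gives a long polycistronic transcript that is cut at the tRNAs between the genes, after which most of the mRNAs receive poly(A) tails. MT-ND6 mRNA is known as an exception without such a tail, so its counts after poly(A) selection may not stand for its level. The proteins are core subunits of respiratory complexes I, III and IV and of ATP synthase (complex V), which are completed by subunits made from nuclear genes.

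The map of the mitochondrial genome limits what some rows can show, so the sequences at the shared and abutting ends are given first (hg38, positions equal to those of GENCODE release 29 for 25 of 25 rows). MT-ATP8 and MT-ATP6 lie on a joint mRNA and share 46 bases, in capitals below, and a read inside them fits both genes. MT-ND4L and MT-ND4 share 7 bases in the same way.
End of MT-ATP8 (plus strand, chrM:8497-8572): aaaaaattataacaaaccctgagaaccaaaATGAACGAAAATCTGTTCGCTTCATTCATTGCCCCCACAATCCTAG
Start of MT-ATP6 (plus strand, chrM:8527-8602): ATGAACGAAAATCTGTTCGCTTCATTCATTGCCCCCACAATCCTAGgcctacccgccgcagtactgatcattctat
End of MT-ND4L (plus strand, chrM:10737-10766): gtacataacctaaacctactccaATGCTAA
Start of MT-ND4 (plus strand, chrM:10760-10789): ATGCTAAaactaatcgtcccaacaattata

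MT-ND6, the only mRNA of these 13 on the minus strand, ends tail to tail against MT-ND5 with a gap of 0 bases, and the stop codons are in capitals. The library kit keeps strand, but whether counting used it is unknown here. MT-ND6 counts therefore cannot be separated from reads of the opposite transcript that runs past the end of MT-ND5.
End of MT-ND5 (plus strand, chrM:14119-14148): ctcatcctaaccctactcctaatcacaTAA
End of MT-ND6 (minus strand, chrM:14149-14178): attgtaattgagattgctcgggggaatAGG

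Of the 13 mRNAs, 6 are annotated with an incomplete stop codon that the poly(A) tail completes, so that selection by the tail captures a processed form. MT-ATP6 is annotated with a full TAA, but its last base is also the first base of MT-CO3. The 6 therefore count annotated ends alone. The 4 ends below were chosen because the first pair belongs to the genes that were called in 0 of 6 comparisons, and the other pair to genes called in 5 and 4 of them. Capitals mark the incomplete codon, which both kinds of gene had.
Last bases of MT-ND1 (plus strand, chrM:4233-4262): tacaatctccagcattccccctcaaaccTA
Last bases of MT-ND2 (plus strand, chrM:5482-5511): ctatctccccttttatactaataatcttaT
Last bases of MT-CO3 (plus strand, chrM:9961-9990): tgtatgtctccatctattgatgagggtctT
Last bases of MT-ND4 (plus strand, chrM:12108-12137): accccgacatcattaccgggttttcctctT

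Copies of mitochondrial DNA in the nuclear genome make a further limit, and 34 rows bore the names of such pseudogenes. MTATP6P1 on chromosome 1 has the length of MT-ATP6, 681 bases, and differs from it at 10 of them, an identity of 98.5%. Its row held between 13.8% and 15.0% as many counts as MT-ATP6 in every library, against 0.647% to 1.04% for MTND2P28 beside MT-ND2 and 0.157% to 0.389% for MTCO1P12 beside MT-CO1. Bases 141 to 200 of both sequences show how few positions tell reads apart: here only the capitals differ, A151C, A175G and A192G, written as the base of MT-ATP6, its position from 1 at the start of the gene, and the base of MTATP6P1.
MT-ATP6 (plus strand, chrM:8667-8726): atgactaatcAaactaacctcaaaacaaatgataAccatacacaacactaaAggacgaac
MTATP6P1 (plus strand, chr1:633836-633895): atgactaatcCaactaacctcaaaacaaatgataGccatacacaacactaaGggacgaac

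Libraries held 41.8 to 62.5 M estimated counts. TAF5 averaged 40.0 CPM (counts scaled to a common depth) in siNT, 6.72 in siTAF5, 105 in FL and 88.0 in ΔE8, with no overlap between groups. Of 7 markers of HEK293 cells, 6 were above 1 CPM on average and SOX11 was below it, and their summed level was 221 to 237 CPM in all 12 libraries. Among 7 fibroblast markers, COL1A1 and COL3A1 were above 1 CPM and 5 were under it, and the list summed to 17.1 to 17.5 CPM in siNT, 10.6 to 11.3 in siTAF5, 8.81 to 10.3 in FL and 8.33 to 8.90 in ΔE8. Among 7 blood markers, 6 were under 1 CPM and HBA1 was above it, with sums of 6.43 to 11.1 CPM. Epithelial markers summed to 460 to 465 CPM in siNT, 392 to 403 in siTAF5, 489 to 513 in FL and 426 to 441 in ΔE8, with KRT5 and KRT14 under 1 CPM. No marker was at 0 in all libraries, and the part of these genes in the results was not tested.

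Between 0.734% and 1.13% of a library's counts fell on the 13 mRNAs. By library, their share was 0.973, 0.921 and 1.13% in siNT replicates 1 to 3 and 0.952, 0.869 and 0.895% in siTAF5. It was 0.767, 0.793 and 0.786% in FL and 0.734, 0.813 and 0.818% in ΔE8. The siNT and siTAF5 libraries overlapped, siNT replicate 3 stood highest of the 12, and all 6 libraries with a transgene were below all 6 without one. Group means were 1.01 ± 0.107% (SD, n = 3 here and below) in siNT, 0.906 ± 0.0425% in siTAF5, 0.782 ± 0.0134% in FL and 0.788 ± 0.0472% in ΔE8. An exact two-sided permutation test of 3 libraries against 3 cannot go below p = 0.1. This exact permutation test gave p = 0.2 for siTAF5 against siNT, p = 0.1 for FL and for ΔE8 against siTAF5 and against siNT, and p = 1 for ΔE8 against FL. In bulk RNA, fewer mitochondrial genomes per cell, less RNA from each, less capture by the poly(A) tail and more RNA from the nucleus cannot be told apart.

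**Figure D1:**
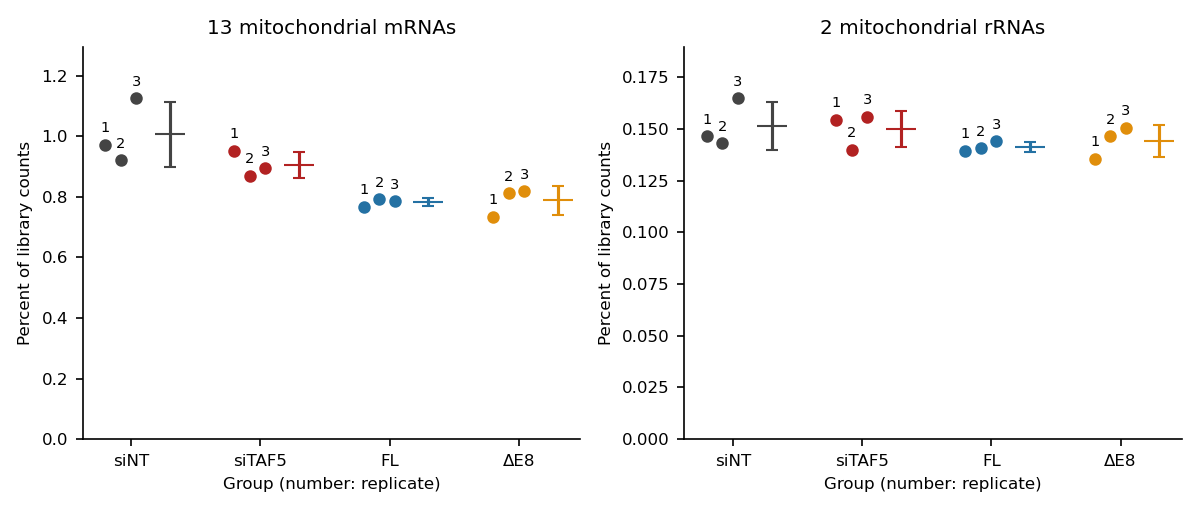
Percent of each library's counts in the 13 mitochondrial mRNAs (left) and the 2 mitochondrial rRNAs (right), by group. Points are libraries numbered by replicate, and bars are the mean and SD of 3. The 6 FL and ΔE8 libraries lie under the 6 others for mRNAs, with siNT replicate 3 highest at 1.13%, while the rRNA shares overlap.

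Single libraries moved the whole set. In siNT replicate 3, 13 of 13 mRNAs were above their own group's mean, by a median of 0.17 on the log2 scale, and in siNT replicate 2, 0 of 13 were. In siTAF5 replicate 1, 13 of 13 were above the group mean (median 0.093), and in ΔE8 replicate 1, 0 of 13 were (median -0.094), while 13 of 13 were in ΔE8 replicate 3. The FL libraries were closest to each other. Across the 78 pairs of mRNAs, deviations from group means had a median Pearson r of 0.92 over the 12 libraries (0.89 without siNT replicate 3), as a description: the values share library and depth. The 13 mRNAs thus do not vary singly, and a count of how many were called is not a count of 13 separate observations.

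Levels per kilobase of gene length, which allow genes to be set beside each other, had a nearly fixed order. The complex IV subunits MT-CO1, MT-CO2 and MT-CO3 came first, at 1911, 1653 and 1059 CPM per kilobase averaged over the 12 libraries. The ATP synthase subunits MT-ATP6 (896) and MT-ATP8 (789) followed, then the complex I subunit MT-ND4 (562). Each of these 6 genes was above the next in all 12 libraries. MT-ND3 (488), MT-CYB (436), MT-ND5 (399.6), MT-ND4L (377), MT-ND2 (344) and MT-ND6 (326) formed a lower set in which neighbours changed places in 1 to 4 libraries. MT-ND1, at 229.8 CPM per kilobase, was the lowest mRNA in all 12 libraries. The order of siNT did not hold in every group: MT-ND5 stood above MT-CYB in siNT on average (485 against 472) and below it in siTAF5 (378 against 419), FL (374 against 427) and ΔE8 (362 against 428).

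Depletion of TAF5, siTAF5 against siNT, came with lower levels of most mitochondrial mRNAs. In edgeR's quasi-likelihood test, with Benjamini-Hochberg adjustment over 19424 genes here and for every adjusted p below, 10 of 13 passed the threshold of 0.05 as lower (called lower) and 0 as higher. Over all genes, 25.0% were called lower and 24.7% higher. The median log2 change of the 13 was -0.18, beside 2.2e-04 over all genes tested. The groups did not overlap for 4 mRNAs, against 28.8% of all genes lower without overlap. Falls were small: the largest, of MT-ND5, was 22.2%. Without siNT replicate 3 the count of 10 became 5, and the median became -0.092. Of all genes, 4441 of 19802 were then called lower.

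Complex I, which oxidises NADH, has 7 of its subunits among these genes. MT-ND5, a proton-pumping subunit (chromosome M, 12337 to 14148), had CPM values of 828, 818 and 989.8 in siNT, 728, 652 and 673 in siTAF5 and 654, 687 and 692 in FL, with 606, 670.1 and 690.1 in ΔE8. All 3 siNT libraries were above all 9 others, and the other groups overlapped. The change from siNT to siTAF5 was -0.36 (SE 0.057, adjusted p = 2.44e-05) on the log2 scale, and -0.27 (adjusted p = 7.65e-05) without siNT replicate 3. MT-ND6 (14149 to 14673, minus strand) had CPM values of 201, 185 and 230.4 in siNT, 175, 149.6 and 160.0 in siTAF5 and 166, 168 and 162 in FL, with 143, 158 and 159 in ΔE8, again with siNT above every other library. Its change was -0.35 (SE 0.060, adjusted p = 5.87e-05), and -0.26 without siNT replicate 3.

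MT-ND4, another proton-pumping subunit (10760 to 12137), had CPM values of 892, 841 and 1058 in siNT, 831, 728 and 761 in siTAF5 and 678, 705 and 705 in FL, with 652, 711 and 726 in ΔE8, in steps without overlap from siNT to siTAF5 and from siTAF5 to FL and ΔE8. It changed by -0.27 (SE 0.060, adjusted p = 9.07e-04) in siTAF5 against siNT. Its neighbour MT-ND4L (10470 to 10766) had CPM values of 132, 121 and 143 in siNT, 126, 109 and 112 in siTAF5 and 94.9, 101 and 105 in FL, with 91.0, 99.2 and 108 in ΔE8, and siNT and siTAF5 overlapped. The change of MT-ND4L, -0.19 (SE 0.060, adjusted p = 0.0125), was not called without siNT replicate 3 (adjusted p = 0.101). MT-ND3 (10059 to 10404), a small subunit, had CPM values of 188, 181 and 205 in siNT, 177, 174 and 168 in siTAF5 and 156, 163 and 161 in FL, with 144, 151 and 159.8 in ΔE8. Every siTAF5 value of MT-ND3 was below every siNT value, and the change of -0.14 (SE 0.039, adjusted p = 0.00478) was likewise lost without that library (adjusted p = 0.0501).

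MT-ND1 and MT-ND2 were the complex I genes not called in siTAF5 against siNT, and differences between genes were not tested. MT-ND1 (3307 to 4262) had CPM values of 227, 208 and 264 in siNT, 237, 209 and 222 in siTAF5 and 201, 210.4 and 223 in FL, with 195, 217 and 224 in ΔE8, with overlap among the 4 groups. Its change in siTAF5 was -0.066 (SE 0.065, adjusted p = 0.426). MT-ND2 (4470 to 5511) had CPM values of 346, 337 and 409.9 in siNT, 369.8, 334 and 356 in siTAF5 and 351, 352 and 358 in FL, with 339.8, 368 and 379.6 in ΔE8, and all groups but for siNT replicate 3 lay in a common range. Its change was -0.045 (SE 0.054, adjusted p = 0.523). Without siNT replicate 3 both changes turned positive, to 0.034 and 0.049, and neither was called. A test for any difference among the 4 groups called 11 of the 13 mRNAs, all but MT-ND1 and MT-ND2, where 72.3% of all genes were called. The 95% interval of the log2 change of MT-ND2 in siTAF5 ran from -0.16 to 0.068 and held the changes of MT-ND1, MT-CO2, MT-CO3 and MT-ND3 but not the larger falls of the other 8 mRNAs. That of MT-ND1 ran from -0.20 to 0.069. It held the changes of MT-ND2, MT-ND3, MT-ND4L, MT-CYB, MT-CO1, MT-CO2 and MT-CO3.

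Complex III, which passes electrons to cytochrome c, has cytochrome b, MT-CYB (14747 to 15887), as its mitochondrially encoded subunit. It had CPM values of 505, 499 and 611 in siNT, 499.8, 457 and 477 in siTAF5 and 469, 491 and 501 in FL, with 451, 501 and 512 in ΔE8. The siNT and siTAF5 libraries overlapped, and the change of -0.17 (SE 0.058, adjusted p = 0.0180) was not called without siNT replicate 3, at -0.072 (adjusted p = 0.199).

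Complex IV, cytochrome c oxidase, has its 3 core subunits here. MT-CO1 (5904 to 7445), which holds the site where oxygen is reduced, had CPM values of 3418, 3198 and 3959.6 in siNT, 3264, 3000.0 and 3084 in siTAF5 and 2516, 2594 and 2569 in FL, with 2443, 2684 and 2633 in ΔE8. In MT-CO1 the siTAF5 values reached into the siNT range, while FL and ΔE8 lay far below both. The change in siTAF5 was -0.18 (SE 0.051, adjusted p = 0.00685), and -0.086 (adjusted p = 0.0673) without siNT replicate 3. MT-CO2 (7586 to 8269), which receives electrons from cytochrome c, had CPM values of 1230.1, 1142 and 1393 in siNT, 1256, 1137 and 1131 in siTAF5 and 1061, 1029.8 and 1013 in FL, with 994, 1085 and 1095 in ΔE8, with siTAF5 replicate 1 inside the siNT range. Its change of -0.10 (SE 0.052, adjusted p = 0.139) was not called. MT-CO3 (9207 to 9990) had CPM values of 944, 870.0 and 1052 in siNT, 897, 838 and 865 in siTAF5 and 762, 778 and 778 in FL, with 685, 753 and 740.2 in ΔE8, and changed by -0.14 (SE 0.047, adjusted p = 0.0168), a call that was lost without siNT replicate 3 (adjusted p = 0.175). The calls of MT-CO3, MT-CYB and MT-ND4L were lost without siTAF5 replicate 2 and with the DESeq2 test as well. Those of MT-CO3 and MT-CYB were also lost with library totals. MT-CO2 was called without siNT replicate 2, without siTAF5 replicate 1 or with no low-count filter.

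Complex V makes ATP, and MT-ATP6 and MT-ATP8 are subunits of its membrane part. MT-ATP6 (8527 to 9207) had CPM values of 696, 659 and 818 in siNT, 664, 581 and 609 in siTAF5 and 574, 569 and 567 in FL, with 495, 546 and 544 in ΔE8, with siTAF5 replicate 1 above siNT replicate 2 and ΔE8 below the rest. It changed by -0.23 (SE 0.058, adjusted p = 0.00234), and by -0.13 (adjusted p = 0.0214) without siNT replicate 3. MT-ATP8 (8366 to 8572) had CPM values of 196, 173 and 211 in siNT, 178, 159.7 and 163 in siTAF5 and 148, 157 and 151 in FL, with 129, 143 and 150.3 in ΔE8, and changed by -0.21 (SE 0.057, adjusted p = 0.00437), and by -0.14 (adjusted p = 0.0445) without that library. The 5 genes called with and without siNT replicate 3 were thus MT-ND4, MT-ND5, MT-ND6, MT-ATP6 and MT-ATP8, and these were called under 16 of 16 alternatives. MT-ATP6 and MT-ATP8 share bases and MT-ND5 and MT-ND6 abut, as shown above, while MT-ND4 shares its 7 bases with MT-ND4L, which was not called without siNT replicate 3.

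**Figure D2:**
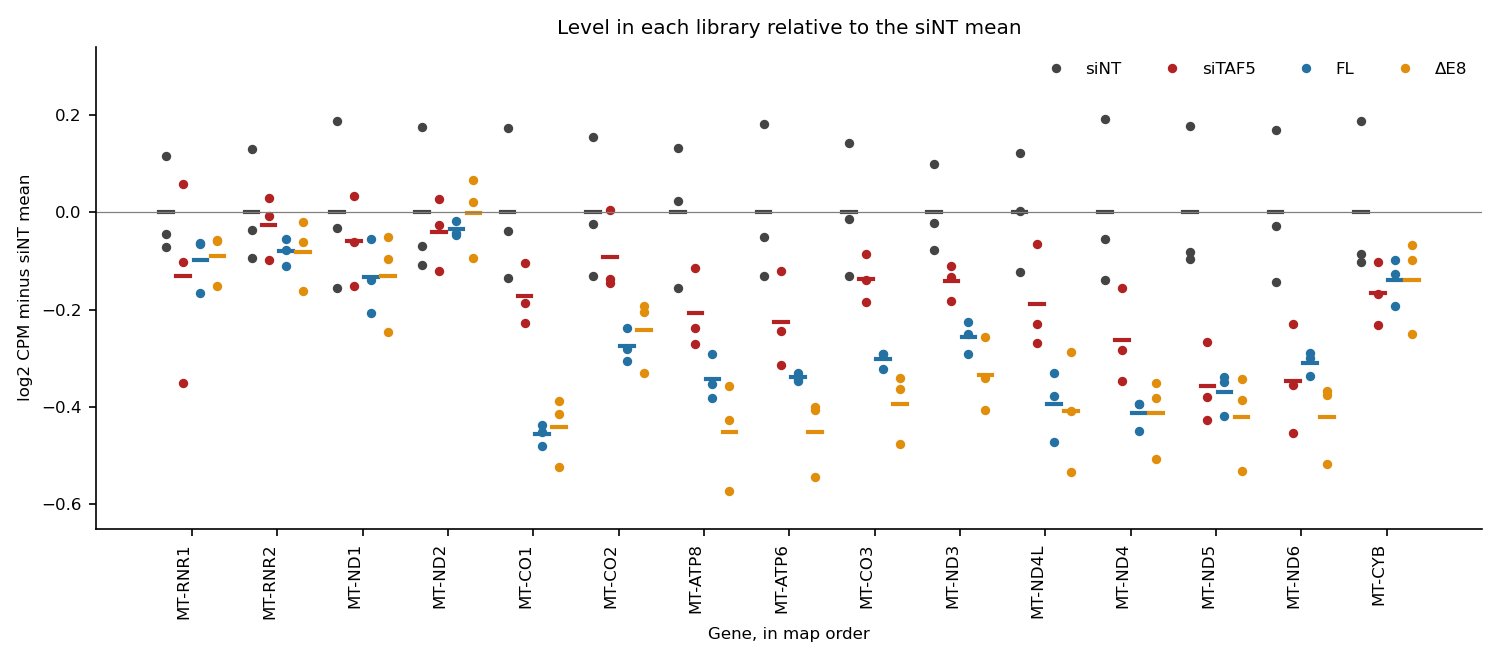
Level of the 2 rRNAs and 13 mRNAs in each library, as log2 CPM minus the siNT mean of that gene, in map order. Points are libraries and short lines are group means over 3. The groups overlap for MT-RNR1, MT-RNR2, MT-ND1 and MT-ND2, MT-CO1 drops from siTAF5 to FL and ΔE8, and MT-ND5 and MT-ND6 are already low in siTAF5.

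Expression of either transgene did not bring the mitochondrial mRNAs back toward siNT. FL and ΔE8 were each compared with siTAF5, and the 2 comparisons share the siTAF5 libraries. In FL against siTAF5, 6 of 13 mRNAs were called lower and 0 higher, with a median of -0.12 beside -0.0052 over all genes, where 24.4% were called lower and 24.4% higher. In ΔE8 against siTAF5, 7 were called lower and 0 higher, with a median of -0.15 beside -0.011 over all genes, where 20.6% were called lower and 20.0% higher. Groups did not overlap for 8 mRNAs in each, all lower, against 28.3% of all genes for FL and 25.5% for ΔE8. MT-CO1, MT-CO2, MT-CO3, MT-ND3 and MT-ND4L were the 5 called lower in both. Without siTAF5 replicate 1 the counts fell to 2 and 5, where 4295 and 3329 of all 19890 genes were called lower. Without FL replicate 1 the count for FL was 3, where 4299 of 19823 genes were. In these fits the counts for FL were thus near or below the share of all genes.

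The largest of these changes was in MT-CO1, -0.28 (SE 0.052, adjusted p = 1.14e-04) in FL and -0.27 (SE 0.052, adjusted p = 3.06e-04) in ΔE8. MT-CO3 changed by -0.17 (adjusted p = 0.00593) and -0.26 (adjusted p = 1.94e-04), and MT-CO2 by -0.18 (adjusted p = 0.00675) and -0.15 (adjusted p = 0.0271). All 3 complex IV subunits were thus lower with either transgene, each with no overlap between groups. In complex I, MT-ND4L changed by -0.21 (adjusted p = 0.00864) and -0.22 (adjusted p = 0.00651), and MT-ND3 by -0.11 (adjusted p = 0.0225) and -0.19 (adjusted p = 6.08e-04). MT-ND4 moved by nearly the same amount in each, -0.15 (adjusted p = 0.0432) in FL and -0.15 (adjusted p = 0.0506) in ΔE8, on either side of the threshold. Single libraries decided several of these calls: without siTAF5 replicate 1, MT-CO2 and MT-ND4L were called in neither comparison, and MT-ND3 and MT-ND4 not in FL. MT-ND3 in FL was also lost without siTAF5 replicate 2 or FL replicate 1, MT-ND4L in FL without FL replicate 1, and MT-CO2 and MT-ND4L in ΔE8 without ΔE8 replicate 1. MT-ND4 in FL was lost without any 1 of 5 of the 6 libraries, all but siTAF5 replicate 2, and MT-ND4 in ΔE8 was called without siTAF5 replicate 2. MT-CO1 and MT-CO3 were called lower in both under 16 of 16 alternatives.

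MT-ATP6 and MT-ATP8 were called in ΔE8 against siTAF5, at -0.23 (adjusted p = 0.00366) and -0.25 (adjusted p = 0.00209), and not in FL, at -0.12 (adjusted p = 0.108) and -0.14 (adjusted p = 0.0610). The 2 genes were called lower in FL too with library totals, with no low-count filter and with only those 2 groups in the fit, and MT-ATP8 also with upper quartile factors. MT-ND5 and MT-ND6, the genes with the largest falls in siTAF5, did not fall further: in FL they changed by -0.013 and 0.036, and in ΔE8 by -0.062 and -0.075, with no call. With library totals as the scale the change of MT-ND6 in FL was -0.011. MT-CYB changed by 0.027 and 0.029, MT-ND1 by -0.074 and -0.072, and MT-ND2 by 0.0040 and 0.038, again uncalled. With library totals as the scale the FL changes of MT-CYB and MT-ND2 were -0.020 and -0.043.

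ΔE8 against FL compares TAF5 lacking exon 8 with full-length TAF5. The level of TAF5 also differed, at 88.0 CPM in ΔE8 and 105 in FL on average, without overlap. Exon 8, TAF5 level, doxycycline amount and the line carrying each transgene cannot be told apart in this comparison. For the mitochondrial mRNAs the edgeR test called 0 of 13 lower and 0 higher, while 19.7% of all genes were called lower and 17.3% higher. No mRNA had an unadjusted p under 0.05, the DESeq2 and limma voom tests also called 0, and a fit of these 6 libraries alone called 3 lower (MT-ATP6, MT-CO3 and MT-ND6). Without ΔE8 replicate 3, MT-ND3 was called lower. The median was -0.015, beside -0.0089 over all genes. MT-ATP6, MT-CO3 and MT-ND6 were lower in ΔE8 without overlap, against 23.9% of all genes, with changes of -0.11, -0.090 and -0.11. Their 95% intervals ran from -0.23 to 0.011, from -0.19 to 0.0080 and from -0.24 to 0.016. MT-CO1, at 0.015, had an interval from -0.093 to 0.12.

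Compared with siNT, the groups with a transgene had the lowest summed share of the 13 mRNAs, although the group mean of siTAF5 was the lowest for MT-CYB and MT-ND2 and was below FL for MT-ND6. The 2 comparisons share the siNT libraries with each other and with siTAF5 against siNT. In FL, 11 of 13 mRNAs were called lower and 0 higher, with a median of -0.31 beside 0.0062 over all genes (26.8% called lower, 27.8% higher). In ΔE8, 11 were called lower and 0 higher, with a median of -0.41 beside -9.1e-04 (31.4% called lower, 30.8% higher). Groups did not overlap for 10 in each, against 29.4% and 33.0% of all genes. Without siNT replicate 3, 10 were called in each, the same genes without MT-CYB, and the medians were -0.23 and -0.32. Of all 19802 genes, 4867 in FL and 5822 in ΔE8 were then called lower.

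MT-CO1 fell by 27.4% in FL, from 3525 ± 392 to 2559.5 ± 39.8 CPM, and by 26.6% in ΔE8, to 2587 ± 127 CPM. Its log2 changes were -0.46 (SE 0.052, adjusted p = 2.51e-07) and -0.45 (SE 0.052, adjusted p = 2.29e-07). MT-ATP6 and MT-ATP8 changed by -0.35 and -0.35 in FL and by -0.46 and -0.46 in ΔE8. MT-ND4, MT-ND4L, MT-ND5 and MT-ND6 changed by -0.42, -0.40, -0.37 and -0.31 in FL, and by -0.42, -0.41, -0.42 and -0.43 in ΔE8. MT-CO3, MT-CO2 and MT-ND3 were in between, at -0.31, -0.28 and -0.26 in FL and -0.40, -0.25 and -0.34 in ΔE8. MT-CYB moved least among the called, by -0.15 (adjusted p = 0.0405) and -0.14 (adjusted p = 0.0381). MT-ND1, at -0.14 (adjusted p = 0.0760) and -0.14 (adjusted p = 0.0728), and MT-ND2, at -0.041 (adjusted p = 0.554) and -0.0073 (adjusted p = 0.917), were not called. MT-CYB lost its call in 4 of 16 alternatives in each group. These were the DESeq2 test and leaving out siNT replicate 3 in both, and leaving out FL replicate 1 or 2 in FL. In ΔE8 they were also library totals and leaving out ΔE8 replicate 1. MT-ND1 gained a call without siNT replicate 2 in both, without FL replicate 3 in FL and without ΔE8 replicate 3 in ΔE8. Without siNT replicate 3 the change of MT-ND2 was 0.053 in FL and 0.086 in ΔE8.

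**Figure D3:**
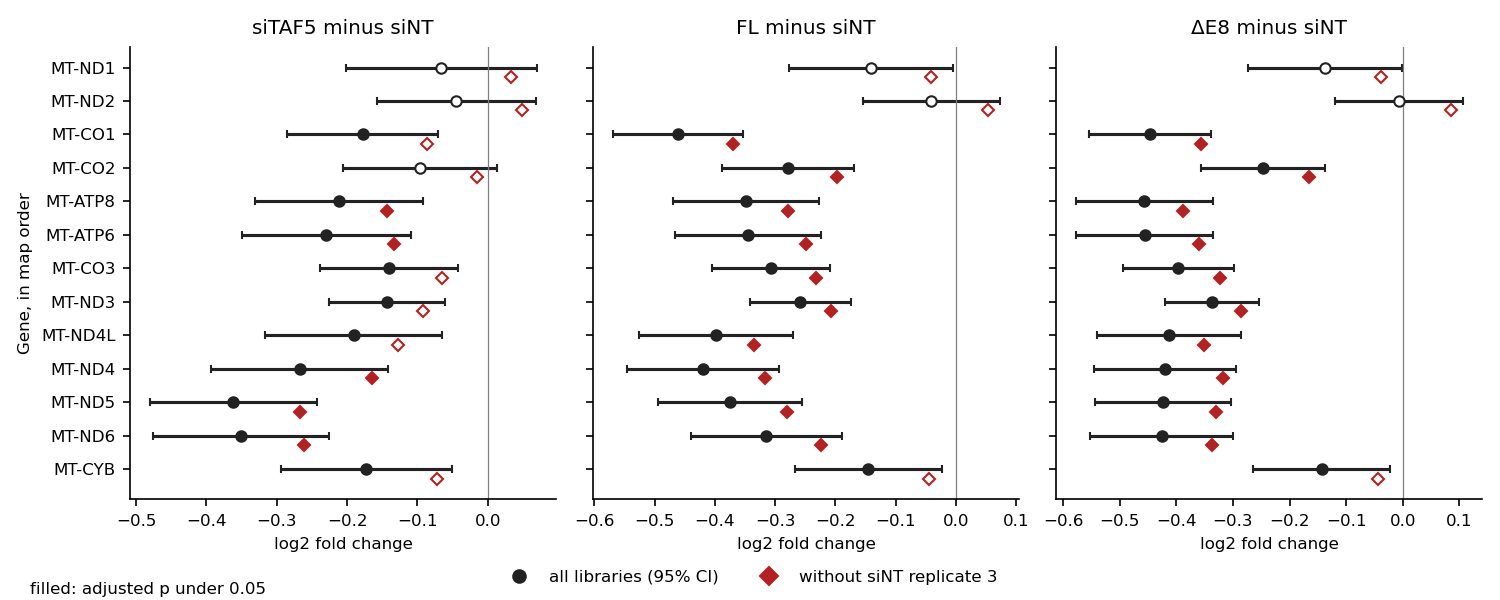
Log2 fold change of each mitochondrial mRNA against siNT in siTAF5, FL and ΔE8, in map order. Black circles with 95% intervals use all 12 libraries, red diamonds leave out siNT replicate 3, and filled symbols have an adjusted p under 0.05 (edgeR). Every diamond lies to the right of its circle, 5 of the 10 filled circles of siTAF5 stay filled, and 10 of 11 do in FL and in ΔE8.

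Ratios of 2 genes within a library do not depend on how much mitochondrial RNA that library holds. Counts of MT-ND5 per count of MT-ND2 were 2.39, 2.43 and 2.41 in siNT, 1.97, 1.95 and 1.89 in siTAF5, 1.86, 1.95 and 1.93 in FL, with 1.78, 1.82 and 1.82 in ΔE8. All siNT libraries, replicate 3 included, lay above all others, and the siTAF5 mean of 1.94 ± 0.0411 was 19.7% under the siNT mean of 2.41 ± 0.0182. MT-ND5 to MT-CYB, genes that are neighbours on the plus strand, went from 1.63 ± 0.0111 in siNT to 1.43 ± 0.0232 in siTAF5, 1.39 ± 0.0101 in FL and 1.34 ± 0.00546 in ΔE8, with no overlap among the 4 groups.

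MT-CO1 to MT-ND2 was 9.89, 9.50 and 9.66 in siNT, 8.83, 9.00 and 8.66 in siTAF5, 7.16, 7.36 and 7.17 in FL, with 7.19, 7.29 and 6.94 in ΔE8. This ratio fell in steps without overlap from siNT to siTAF5 and from there to FL and ΔE8, which overlapped. MT-CO1 to MT-ND5 moved both ways: 4.01 ± 0.112 in siNT, 4.56 ± 0.0625 in siTAF5, 3.78 ± 0.0657 in FL and 3.95 ± 0.117 in ΔE8. All siTAF5 values of it lay above the other 9. Each difference without overlap had p = 0.1, the smallest that the exact two-sided permutation test allows, and an adjusted p of 0.225 over the 54 tests of ratios and shares. The pairs were not part of the planned tests and combine genes whose changes are given above. These ratios therefore describe the same libraries again and are not separate evidence. Relative to MT-ND2, MT-ND5 thus moved mainly between siNT and siTAF5, and MT-CO1 more between siTAF5 and the groups with a transgene.

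Ratios of genes on a joint mRNA overlapped between groups. MT-ATP8 to MT-ATP6 averaged 0.267 ± 0.0122, 0.270 ± 0.00399, 0.267 ± 0.00959 and 0.267 ± 0.00835 in the 4 groups in the order siNT, siTAF5, FL, ΔE8. MT-ND4L to MT-ND4 averaged 0.142 ± 0.00636, 0.150 ± 0.00185, 0.144 ± 0.00425 and 0.143 ± 0.00531 in the same order. MT-ND6 to MT-ND5, from opposite strands, averaged 0.234 ± 0.00811, 0.236 ± 0.00546, 0.244 ± 0.00993 and 0.234 ± 0.00330. The 4 groups overlapped in all 3 ratios. Complex IV genes held 56.6 ± 0.353% of the 13 mRNAs' counts in siNT, 57.9 ± 0.373% in siTAF5, 55.0 ± 0.402% in FL and 55.6 ± 0.521% in ΔE8.

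**Figure D4:**
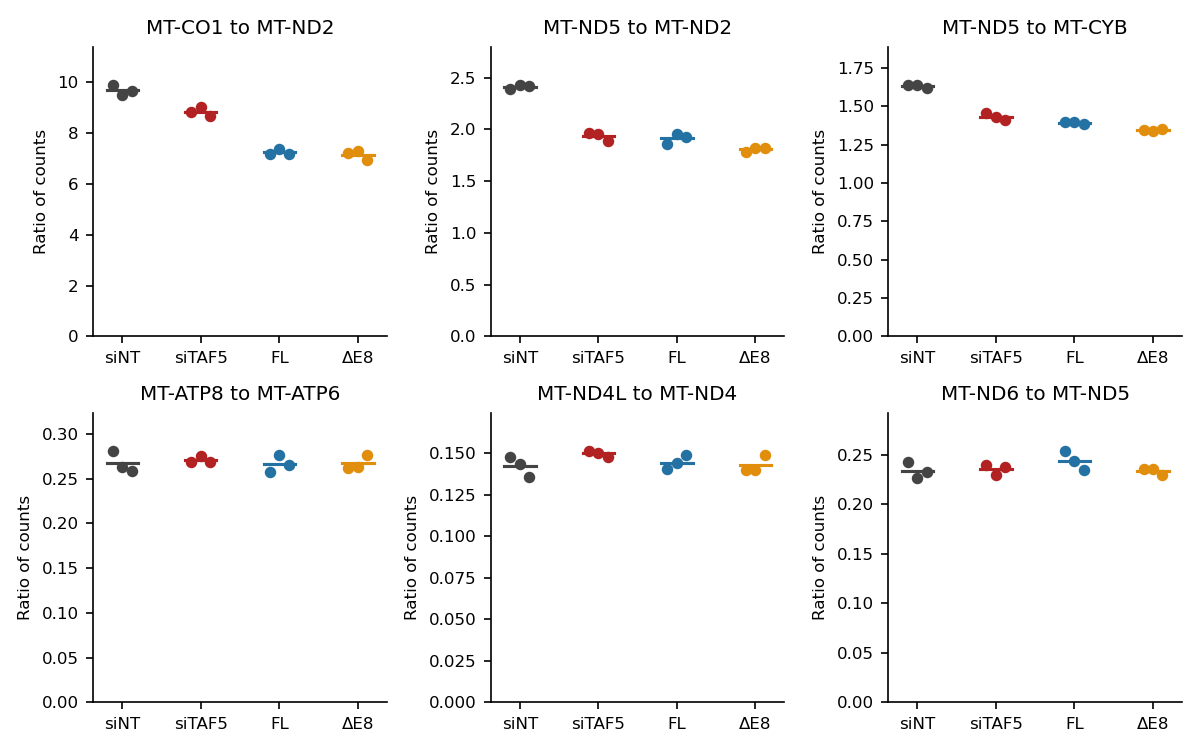
Ratios of counts of 2 mitochondrial mRNAs within each library, by group, on axes that start at 0. Points are libraries and lines are means of 3. The upper 3 ratios differ between siNT and siTAF5 without overlap, from 2.39 to 2.43 against 1.89 to 1.97 for MT-ND5 to MT-ND2, while the groups overlap in the lower 3.

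The rRNAs form the small (12S, MT-RNR1) and large (16S, MT-RNR2) subunits of the mitochondrial ribosome. Their values here are those of the molecules that poly(A) selection kept. MT-RNR1 (648 to 1601) had CPM values of 305, 311 and 348 in siNT, 299, 252 and 334 in siTAF5 and 286, 307 and 307 in FL, with 289, 308 and 308 in ΔE8, with siTAF5 replicate 2 lowest and siNT replicate 3 highest. MT-RNR2 (1671 to 3229) had CPM values of 1172, 1125 and 1314 in siNT, 1225, 1122 and 1196 in siTAF5 and 1139, 1114 and 1157 in FL, with 1073, 1151 and 1185 in ΔE8, and the 4 groups overlapped. Neither rRNA was called in any of the 6 comparisons, with log2 changes between -0.12 and 0.033. In siTAF5 they changed by -0.12 (adjusted p = 0.130) and -0.027 (adjusted p = 0.643). The heavy-strand transcript carries the rRNAs, MT-ND1 and MT-ND2 first, and among the rRNAs and mRNAs these 4 were the ones called in 0 of 6 comparisons, whereas each of the other 11 mRNAs was called in 3 to 5. The line between them is a threshold: MT-ND1 changed against siNT by about as much as the called MT-CYB, and it was called in 6 of 16 alternatives for FL and in 5 of 16 for ΔE8.

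Transfer RNAs carry no long tail and are short, and their rows held 10 to 56 counts per library in sum. The table had 10 of the 22 tRNA genes that GENCODE release 29 places on chromosome M, and the other 12 were not analysed here. MT-TA, between MT-ND2 and MT-CO1 on the minus strand, had 29, 20 and 15 counts in siNT, 24, 15 and 27 in siTAF5, 9, 8 and 4 in FL, with 9, 10 and 13 in ΔE8. It was called lower in FL against siTAF5, at -1.51 (SE 0.42, adjusted p = 0.00566), and against siNT, at -1.34 (SE 0.43, adjusted p = 0.0119). In ΔE8 against siTAF5 it was called lower at -1.01 (SE 0.39, adjusted p = 0.0453), although these groups overlapped. MT-TA passed the low-count filter through the siNT and siTAF5 libraries, where its counts were higher. These calls are therefore not independent of how the row was kept, and are given as a description. MT-TN, its neighbour, had 1 to 15 counts per library and was not called. Whether such reads came from tRNAs, from longer transcripts across them or from the opposite strand cannot be told apart.

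Counts of nuclear pseudogenes did not all follow those of their mitochondrial partners. MTATP6P1 changed by -0.23 (adjusted p = 0.00227) in siTAF5 against siNT and by -0.51 (adjusted p = 2.75e-07) in ΔE8 against siNT, near the -0.23 and -0.46 of MT-ATP6. Unlike MT-ATP6 it was also called in ΔE8 against FL, at -0.19 (adjusted p = 0.0204). MTCO1P12 was called lower in FL and ΔE8 against siTAF5, at -0.75 (adjusted p = 0.00464) and -0.75 (adjusted p = 0.00544), and MTND2P28 was called in 0 of 6. In siTAF5 against siNT their changes had the opposite sign to those of their partners: MTCO1P12 was at 0.41 (adjusted p = 0.0883) where MT-CO1 was at -0.18, and MTND2P28 was at 0.20 (adjusted p = 0.450) where MT-ND2 was at -0.045. Neither rise was called, and siTAF5 overlapped siNT in both. MTCO1P12 averaged 7.83 ± 3.39 CPM in siTAF5, 5.92 ± 1.04 in siNT, 4.67 ± 0.468 in FL and 4.71 ± 0.471 in ΔE8. Its rise in siTAF5 and its falls against siTAF5 thus rest on siTAF5 libraries that were far apart. The pseudogene MTND4P12 had at most 0.0217% as many counts as MT-ND4. Adding the counts of the 4 pseudogenes to their partners, an alternative chosen after seeing the data, left the number of mRNAs called lower the same in all 6 comparisons.

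Nuclear genes that make, process and copy mitochondrial RNA and DNA were read from a list of 52. In siTAF5 against siNT, 14 of 52 were called higher and 13 lower, with a median of 0.015 beside 2.2e-04 over all genes, shares near the background given above. TFAM, which packages mitochondrial DNA and starts its transcription, had CPM values of 150.4, 160.0 and 159 in siNT, 194, 196 and 199 in siTAF5 and 204, 205 and 214 in FL, with 227, 217 and 224 in ΔE8, and rose with no overlap by 0.32 (SE 0.029, adjusted p = 1.24e-08) in siTAF5 and by 0.51 (SE 0.028, adjusted p = 7.06e-12) in ΔE8 against siNT. TFAM thus stood higher in the groups in which most mitochondrial mRNAs were lower. TOP1MT, the mitochondrial type I topoisomerase, had CPM values of 38.8, 37.9 and 39.5 in siNT, 23.0, 21.7 and 21.8 in siTAF5 and 28.8, 26.2 and 26.4 in FL, with 17.9, 17.7 and 17.3 in ΔE8, and changed by -0.81 (SE 0.041, adjusted p = 6.39e-12) in siTAF5. FASTK, whose product acts on MT-ND6 RNA, rose by 0.48 (SE 0.032, adjusted p = 2.82e-10), and MGME1, a mitochondrial exonuclease for DNA, by 0.45 (SE 0.039, adjusted p = 1.08e-08). By role, 5 of 9 transcription factors were higher and 1 lower, 4 of 12 RNA-processing genes higher and 3 lower, and 2 of 11 translation genes higher and 3 lower.

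In FL against siTAF5, 28 of the 52 were called higher and 10 lower, where 24.4% of all genes were called higher and 24.4% lower, with a median of 0.082 beside -0.0052. In ΔE8 against siTAF5, 24 were called higher and 4 lower, where 20.0% of all genes were higher and 20.6% lower, with a median of 0.075 beside -0.011. The 5 genes for RNA stability went 4 higher and 1 lower in each. MTPAP, the mitochondrial poly(A) polymerase, had CPM values of 44.5, 45.2 and 45.0 in siTAF5 and 55.8, 54.6 and 60.0 in FL, with 51.8, 51.4 and 51.8 in ΔE8, and rose by 0.34 (adjusted p = 9.38e-08) in FL. PDE12, which removes poly(A) tails in mitochondria, had CPM values of 57.7, 61.7 and 61.1 in siTAF5 and 73.1, 75.9 and 78.8 in FL, with 73.4, 71.1 and 70.3 in ΔE8, and rose by 0.33 (adjusted p = 1.37e-07) and 0.25 (adjusted p = 9.83e-06). Genes for adding and for removing the tail were thus both higher in FL. SSBP1, which binds single-stranded mitochondrial DNA, rose by 0.34 (adjusted p = 1.01e-08) and GFM1, a translation elongation factor, by 0.36 (adjusted p = 3.98e-08) in FL. In ΔE8, MTRF1L, a release factor, rose by 0.34 (adjusted p = 8.77e-08), TOP3A by 0.27 (adjusted p = 1.03e-07) and FASTKD5 by 0.28 (adjusted p = 7.46e-06) against siTAF5.

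In ΔE8 against FL, 12 of the 52 were called higher and 14 lower, where 17.3% of all genes were higher and 19.7% lower, with a median of -0.034 beside -0.0089. TOP1MT changed by -0.62 (SE 0.045, adjusted p = 2.13e-09), FASTK by 0.44 (SE 0.032, adjusted p = 2.49e-09), MGME1 by 0.37 (SE 0.039, adjusted p = 3.46e-07) and PTCD2, an RNA-processing factor for MT-CYB, by 0.30 (SE 0.043, adjusted p = 1.71e-05). These 4 genes had ΔE8 libraries entirely on one side of FL.

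Among 10 nuclear regulators of mitochondrial gene programmes, 1 was called higher and 5 lower in siTAF5 against siNT, where 24.7% of all genes were higher and 25.0% lower (median -0.061). ESRRA, a nuclear receptor that drives respiratory genes, had CPM values of 33.9, 33.4 and 34.6 in siNT, 21.8, 23.8 and 23.8 in siTAF5 and 26.7, 25.0 and 24.2 in FL, with 20.4, 21.0 and 20.2 in ΔE8, and changed by -0.55 (adjusted p = 2.55e-09) in siTAF5. GABPA, also known as NRF2 subunit alpha, changed by -0.29 (adjusted p = 4.68e-07), PPARGC1A, the coactivator PGC-1alpha, by -0.37 (adjusted p = 2.88e-04) and MYC by -0.18 (adjusted p = 4.71e-04). In FL against siTAF5, 4 were higher and 2 lower (all genes 24.4% and 24.4%), and in ΔE8 against siTAF5, 4 were higher and 3 lower (all genes 20.0% and 20.6%). MYC had CPM values of 257, 246 and 252 in siNT, 231, 222 and 211 in siTAF5 and 129, 129.7 and 114 in FL, with 128, 129 and 125 in ΔE8, at about the same level in both groups with a transgene and far lower than in the groups without. PPRC1, a relative of PPARGC1A, rose by 0.35 (adjusted p = 5.93e-10) and 0.28 (adjusted p = 6.65e-08). In ΔE8 against FL, where 19.7% of all genes were lower and 17.3% higher, 4 of the 10 were lower and 0 higher: ESRRA (-0.30), PPARGC1A (-0.30), GABPA (-0.21) and PPRC1 (-0.075).

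Of 76 nuclear genes for subunits of the respiratory complexes, 33 were called higher and 18 lower in siTAF5 against siNT, where 24.7% of all genes were higher and 25.0% lower, with a median of 0.050 beside 2.2e-04. For complex I the split was 18 higher and 7 lower of 37, for complex IV 4 and 5 of 11, and for complex V 6 and 3 of 15. NDUFB10, an accessory complex I subunit, had CPM values of 169.8, 164 and 166 in siNT, 229.9, 223 and 226 in siTAF5 and 191, 179.8 and 179.8 in FL, with 227, 226 and 224 in ΔE8, and rose by 0.45 (adjusted p = 4.36e-11). NDUFV3 and NDUFB9, also of complex I, rose by 0.39 (adjusted p = 1.24e-09) and 0.30 (adjusted p = 6.37e-09), and ATP5F1B, the catalytic beta subunit of ATP synthase, by 0.24 (adjusted p = 4.67e-09). In FL against siTAF5, 36 of 76 were higher and 13 lower (all genes 24.4% and 24.4%), with a median of 0.058. In ΔE8 against siTAF5, 37 were higher and 2 lower (all genes 20.0% and 20.6%), with a median of 0.076. In ΔE8 against FL, 21 were higher and 18 lower (all genes 17.3% and 19.7%; median 0.0085), with NDUFV3 at 0.37 (adjusted p = 5.80e-09) and SDHA, the flavoprotein of complex II, at 0.27 (adjusted p = 1.17e-07) among the higher and ATP5MC2 at -0.31 (adjusted p = 4.91e-07) among the lower. The medians over all 76 nuclear genes and over the 13 mitochondrial mRNAs had opposite signs in the 3 comparisons with siTAF5. This did not hold for each complex. Nuclear complex IV genes had a median of -0.027 in siTAF5 against siNT, where MT-CO1, MT-CO2 and MT-CO3 were also below 0. Nuclear complex III genes had medians of 0.052 and 0.091 in FL and ΔE8 against siTAF5, where MT-CYB was at 0.027 and 0.029. The 76 include 4 genes of complex II, to which none of the 13 mRNAs belongs.

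**Figure D5:**
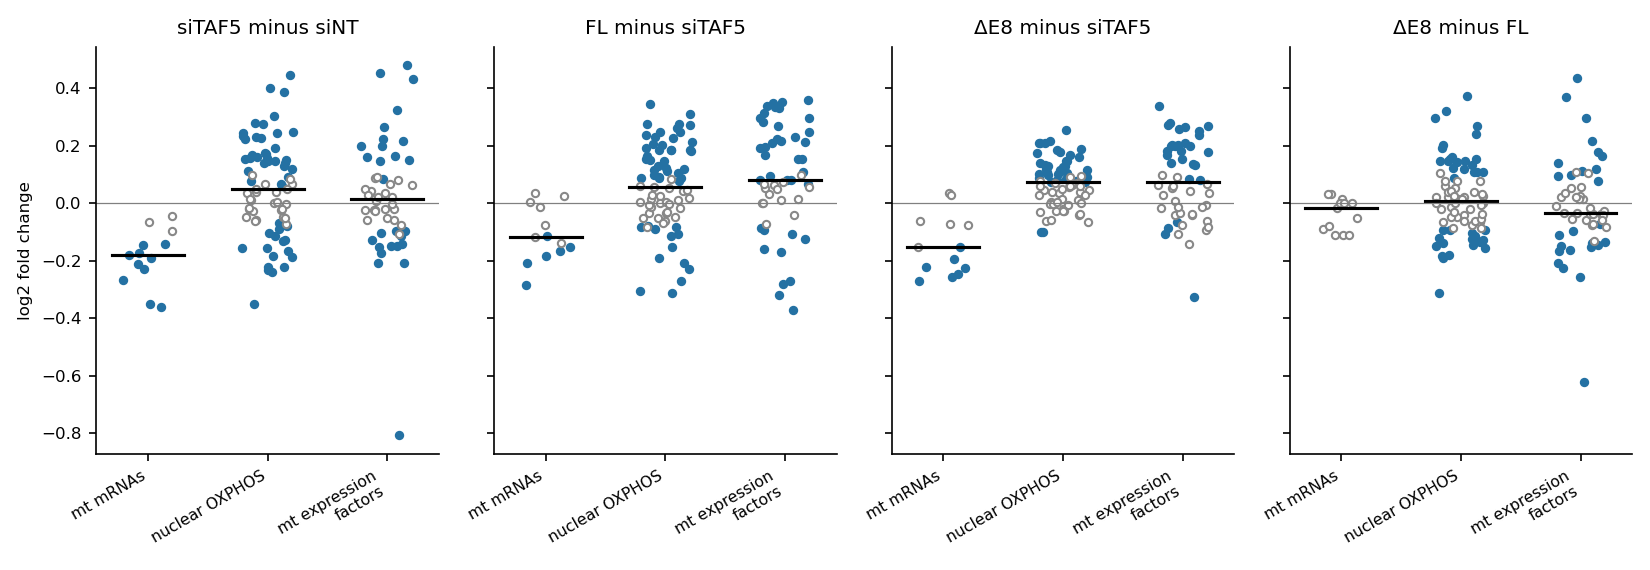
Log2 fold change of single genes in 4 comparisons, for the 13 mitochondrial mRNAs, 76 nuclear genes for respiratory subunits (nuclear OXPHOS) and 52 nuclear factors for mitochondrial gene expression. Blue points have an adjusted p under 0.05 (edgeR), open points do not, and black lines are medians. The mitochondrial mRNAs have medians of -0.18, -0.12 and -0.15 in the first 3 panels, where the other medians are above 0.

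Of 12 mitochondrial chaperones and proteases, which respond to stress in the organelle, 3 were called higher and 4 lower in siTAF5 against siNT (median -0.015), near the 24.7% higher and 25.0% lower of all genes. LONP1, the protease of the matrix, had CPM values of 321, 313 and 306 in siNT, 244, 242 and 234 in siTAF5 and 256, 245 and 232 in FL, with 222, 219 and 217 in ΔE8, and changed by -0.38 (adjusted p = 2.89e-09). HSPD1, the chaperonin HSP60, had CPM values of 1008, 1047 and 1059.7 in siNT, 854, 852 and 851 in siTAF5 and 1092, 1066 and 1101 in FL, with 912, 862 and 876 in ΔE8, lower in siTAF5 and ΔE8 than in siNT and FL. It changed by -0.28 (adjusted p = 6.86e-09) in siTAF5, by 0.35 (adjusted p = 3.45e-10) in FL against siTAF5 and by -0.30 (adjusted p = 8.51e-09) in ΔE8 against FL. SPG7 and HTRA2, both proteases, rose in siTAF5 by 0.28 (adjusted p = 6.01e-07) and 0.28 (adjusted p = 1.16e-06). TRAP1, a matrix chaperone, changed by -0.27 (adjusted p = 2.27e-08) in FL and -0.20 (adjusted p = 2.81e-06) in ΔE8 against siTAF5, and HSPE1, the partner of HSPD1, by 0.23 (adjusted p = 5.59e-07) and 0.094 (adjusted p = 0.00697).

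A list of noncoding RNAs chosen as nuclear was read beside the mitochondrial share, since the balance of nuclear and cytoplasmic RNA can differ between samples. Summed over 6 such RNAs, the level was 437 to 464 CPM in siNT, 576 to 603 in siTAF5, 474 to 503 in FL and 577 to 596 in ΔE8. The sum was thus higher in siTAF5 and ΔE8 than in siNT and FL. Where these RNAs reside in the cell was not measured. OIP5-AS1 (180, 182 and 185 CPM) and TUG1 (119, 129 and 127 CPM) held most of the sum in siNT. NEAT1 had CPM values of 44.3, 52.5 and 51.5 in siNT and 128, 135 and 141 in siTAF5. The sum therefore follows a few RNAs and is no measure of nuclear RNA as a whole. In siTAF5 against siNT, 3 of the 6 were called higher and 1 lower (all genes 24.7% and 25.0%), with NEAT1 at 1.44 (adjusted p = 1.19e-12), TUG1 at 0.52 (adjusted p = 8.66e-10), MALAT1 at 0.58 (adjusted p = 2.39e-05) and OIP5-AS1 at -0.072 (adjusted p = 0.0355). Genes for cytosolic ribosomal proteins took 8.43 ± 0.168% of counts in siNT, 7.41 ± 0.0800% in siTAF5, 7.64 ± 0.118% in FL and 6.96 ± 0.139% in ΔE8. The part of either measure in the mitochondrial values was not tested.

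The genes whose level over the 12 libraries was most like the mean log2 CPM of the 13 mRNAs, among 12300 whose mean log2 CPM reached 2, were MTATP6P1, HCP5, PCED1A, ST3GAL4 and CPQ. Their Pearson r was 0.953, 0.912, 0.910, 0.900 and 0.897, chosen as the 5 highest and so given without a test. Without siNT replicate 3 they were 0.909, 0.804, 0.912, 0.901 and 0.807. MTATP6P1 is a near copy of a member, and the other 4 are nuclear genes whose group means fell from siNT to siTAF5 and again to FL and ΔE8.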

How the data were processed

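Poly(A)-selected RNA of 12 libraries, 4 groups of 3 taken from the sample titles, was sequenced with a stranded kit per the labels' protocols. The table deposited by the authors holds estimated counts per gene, not normalized, as its values show: 46.5% of entries were not whole, including some of 5 of the 13 mitochondrial mRNAs. Tools named, without roles, in the submitters' processing notes were STAR 2.7.0f, cutadapt 1.18, DESeq2 and Partek 10.0.23.0531, with build hg38. The sources used here do not give the quantifier, annotation release, strand setting or handling of reads that fit several places. Doxycycline doses are not printed, since their notation appears to have lost an exponent. Nothing states that replicates were separate cultures, so the spread behind the p-values may be technical. In the main tests that spread was pooled over the 4 groups and drawn toward that of other genes. It is thus not the spread of the 2 groups compared. The mitochondrial mRNAs spread more in siNT than in FL (MT-CO1, SD 392 against 39.8 CPM), so their p-values against siNT may be too small. Library totals were 41.8 to 62.5 M.

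The tests were planned for counts, and the estimated counts were rounded, which moved no library total by more than 91.3 counts. Genes were kept by filterByExpr (minimum count 10), which left 19424 of 32010. With edgeR 4.0.16 in R 4.3.3, TMM factors and a single quasi-likelihood fit of all 12 libraries with a mean per group, 6 two-sided comparisons were made, each Benjamini-Hochberg adjusted over all genes, with a threshold of 0.05 and no minimum fold. Prior degrees of freedom were 11.3, and the biological coefficient of variation over all genes was 2.82%. SEs were taken as the log2 fold change over the root of its F statistic, with 95% intervals. Levels are CPM on TMM-scaled totals. The fit was tested on simulated data with independent genes and equal spread in all groups. That setting differs from the mitochondrial mRNAs, which move together, so it gives no rate of false calls for them. No counting intervals are given, because the reads carry no stated molecular identifiers and replicate pairs differed beyond counting error.

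The mitochondrial genes and the gene lists were chosen with earlier results of these data known. Named were all MT- rows, TAF5, from each nuclear list and comparison up to 4 members with the smallest adjusted p, the 4 pseudogenes with the most counts, and the 5 genes most alike in pattern. List genes were matched by the table's names, Ensembl ID or RefSeq synonym, with MEG3 not found. Sequences and positions came from the GENCODE release 29 reference (hg38), and pseudogenes were compared base by base without gaps. Alternatives were other scalings (DESeq2 1.42.0 size factors, totals, upper quartile, MT- rows left out), no filter, DESeq2 and limma voom (limma 3.58.1) tests, a replicate block, only the groups compared, each library left out, and pseudogene counts added, the last chosen after seeing the data. Figures were drawn with matplotlib 3.10.9.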

Additional observations from a re-analysis of the deposited data

How the results depend on the processing

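Over the scalings, filters, tests and fits tried, the number of 13 mitochondrial mRNAs called lower stayed at 7 to 11 in siTAF5 against siNT (10 as reported), 5 to 8 in FL against siTAF5 (6), 6 to 8 in ΔE8 against siTAF5 (7), and 10 to 12 in FL and in ΔE8 against siNT (11 each), with 0 called higher. In ΔE8 against FL it was 1 with no low-count filter and 3 with only those 2 groups in the fit, against 0. Of all genes, 3491 of 31708 and 3520 of 18331 were then lower. The all-gene counts moved too. In FL against siTAF5, 4732 of 19424 genes were lower as reported and 5788 with library totals, where 8 mRNAs were called. The count of 8 was also reached with no filter (4866 of 31708 genes lower) and with only those 2 groups (4754 of 18485). Leaving out each library in turn gave 5 to 11 in siTAF5 against siNT, 2 to 5 in FL against siTAF5, 5 to 8 in ΔE8 against siTAF5, 0 to 1 in ΔE8 against FL, and 10 to 12 against siNT in both FL and ΔE8. At the lowest of these counts, 4441 of 19802 genes were lower in siTAF5 against siNT and 4295 of 19890 in FL against siTAF5. A group left with 2 libraries was tested with the spread pooled over groups. The cause of these shifts was not tested.

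Signs turned in changes near 0. With library totals, the log2 change in FL against siTAF5 was -0.043 for MT-ND2, -0.011 for MT-ND6 and -0.020 for MT-CYB, that of MT-ND4L in ΔE8 against FL was 0.012, and that of MT-ND2 in ΔE8 against siNT was 0.0058. With upper quartile factors it was -0.013 for MT-ND2 in FL against siTAF5, and in ΔE8 against FL -0.0057 for MT-ND1, -0.0084 for MT-ND4 and -0.0062 for MT-CYB. With no filter MT-ND2 in FL against siTAF5 was at -0.011, and with limma voom MT-ND4 and MT-CYB in ΔE8 against FL were at -0.0022 and -0.00023.

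With 1 library left out, siTAF5 against siNT ran from -0.14 to 0.034 for MT-ND1 and from -0.099 to 0.049 for MT-ND2, and MT-ND2 ran from -0.095 to 0.053 in FL and from -0.062 to 0.086 in ΔE8 against siNT. FL against siTAF5 ran from -0.033 to 0.040 for MT-ND2, -0.044 to 0.036 for MT-ND5, -0.013 to 0.097 for MT-ND6 and -0.0021 to 0.062 for MT-CYB, and ΔE8 against siTAF5 from -0.094 to 0.0029 for MT-ND5. ΔE8 against FL ran from -0.035 to 0.068 for MT-ND1, -0.026 to 0.055 for MT-ND4, -0.071 to 0.055 for MT-ND4L, -0.083 to 0.014 for MT-ND5, -0.028 to 0.066 for MT-CYB and -0.0043 to 0.064 for MT-CO1. Counted per kilobase, complex IV held 48.8%, 50.0%, 47.7% and 48.6% of the 13 mRNAs in siNT, siTAF5, FL and ΔE8, where MT-CO1 is the longest of its genes.

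With a replicate block, 10, 6, 8, 0, 12 and 12 mRNAs were called lower in siTAF5 against siNT, FL and ΔE8 against siTAF5, ΔE8 against FL, and FL and ΔE8 against siNT, and MT-ND4 in ΔE8 against FL was at -0.00028. Over all genes tested, deviations from the group means in same-numbered libraries had correlations within ±0.051. No pairing by replicate number was seen, and a batch that acts on few genes would not show in such correlations.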
